A study of Mus musculus with 18 samples.

Results

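The 9 cytotoxic genes examined were Gzma, Gzmb, Gzmc, Gzmk, Prf1, Fasl, Nkg7, Srgn and Ctsw, which encode proteins of the killing granule of T cells and NK cells or the Fas ligand. They were chosen by name rather than by a threshold on measured values, but with earlier results of these data known. They were 9 of the 50600 genes in the count table. All 9 passed the filter on low counts (a count of at least 10, scaled to library size, in at least 2 tumors). Gzmk did so through 4 of 16 tumors, Fasl through 8, Nkg7 through 14 and the other 6 genes through all 16.

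RNA was sequenced from whole subcutaneous B16F10 tumors, a mouse melanoma line, grown in C57BL/6 mice with an intact immune system and collected 24 h after the last intratumoral (IT) injection. A single dose was PBS, unloaded extracellular vesicles (EVs), free CDN2 at 20 µg, free CDN2 at 100 µg or exoCDN2 at 0.1 µg. CDN2, a cyclic dinucleotide, activates STING, an adaptor of DNA sensing that drives type I interferon, and exoCDN2 is the same agonist loaded into EVs made by engineered human HEK293 cells. Other tumors received 2 doses, 3 days apart, of PBS, CDN2 at 20 µg or exoCDN2, and a further pair received 2 doses of CDN2 in an amount that the labels leave out. Each of the 9 groups held 2 tumors, no group carried an engineered allele, and unloaded EVs and CDN2 at 100 µg had no group with 2 doses.

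Cytotoxic lymphocytes kill in 2 main ways. In granule exocytosis, perforin opens the target cell membrane to granzymes, a family of serine proteases that are stored in acidic granules on a proteoglycan core. In the other, Fas ligand on the killer cell binds the death receptor Fas on the target. Transcripts of these genes are most abundant in CD8+ T cells and NK cells, whereas the core protein of the granule proteoglycan is also made by mast cells, platelets, neutrophils and other blood cells.

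Total expected counts ran from 21608895 to 65983630 per tumor. The lowest total belonged to replicate 1 of the 2-dose CDN2 (20 µg) group, which also stood apart in its content. Its 7 melanoma markers summed to 7442 CPM, against 12907 CPM in replicate 2 and 15065 to 25117 CPM in the tumors of all other groups, and its skeletal muscle markers were the highest of the series. Of the genes tested, 27.1% differed by more than 2-fold between the 2 tumors of this group, against 3.84% to 11.9% in the other groups. Levels are given in CPM, counts scaled to library size with TMM factors. Because whole tumors were sequenced, fewer cells of a type and less RNA per cell cannot be told apart.

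After 2 doses of CDN2 at 20 µg or of exoCDN2, all 9 genes were called higher than in PBS tumors of the same schedule, where 30.6% and 11.3% of all genes were called. With 2 doses of CDN2 in an unstated amount, 2 of the 9 were called higher, where 0.959% of all genes were called. After 1 dose edgeR called none higher, whereas DESeq2 called Gzma higher with CDN2 at 20 µg and with exoCDN2, and Srgn higher with exoCDN2. The summed level of the 8 genes other than Srgn was 3.35 and 4.47 CPM in the 2-dose PBS tumors, 89.6 and 221 CPM after 2 doses of CDN2 and 150 and 290 CPM after 2 doses of exoCDN2. After 1 dose it lay between 3.20 and 25.4 CPM in all 10 tumors.

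**Figure D1:**
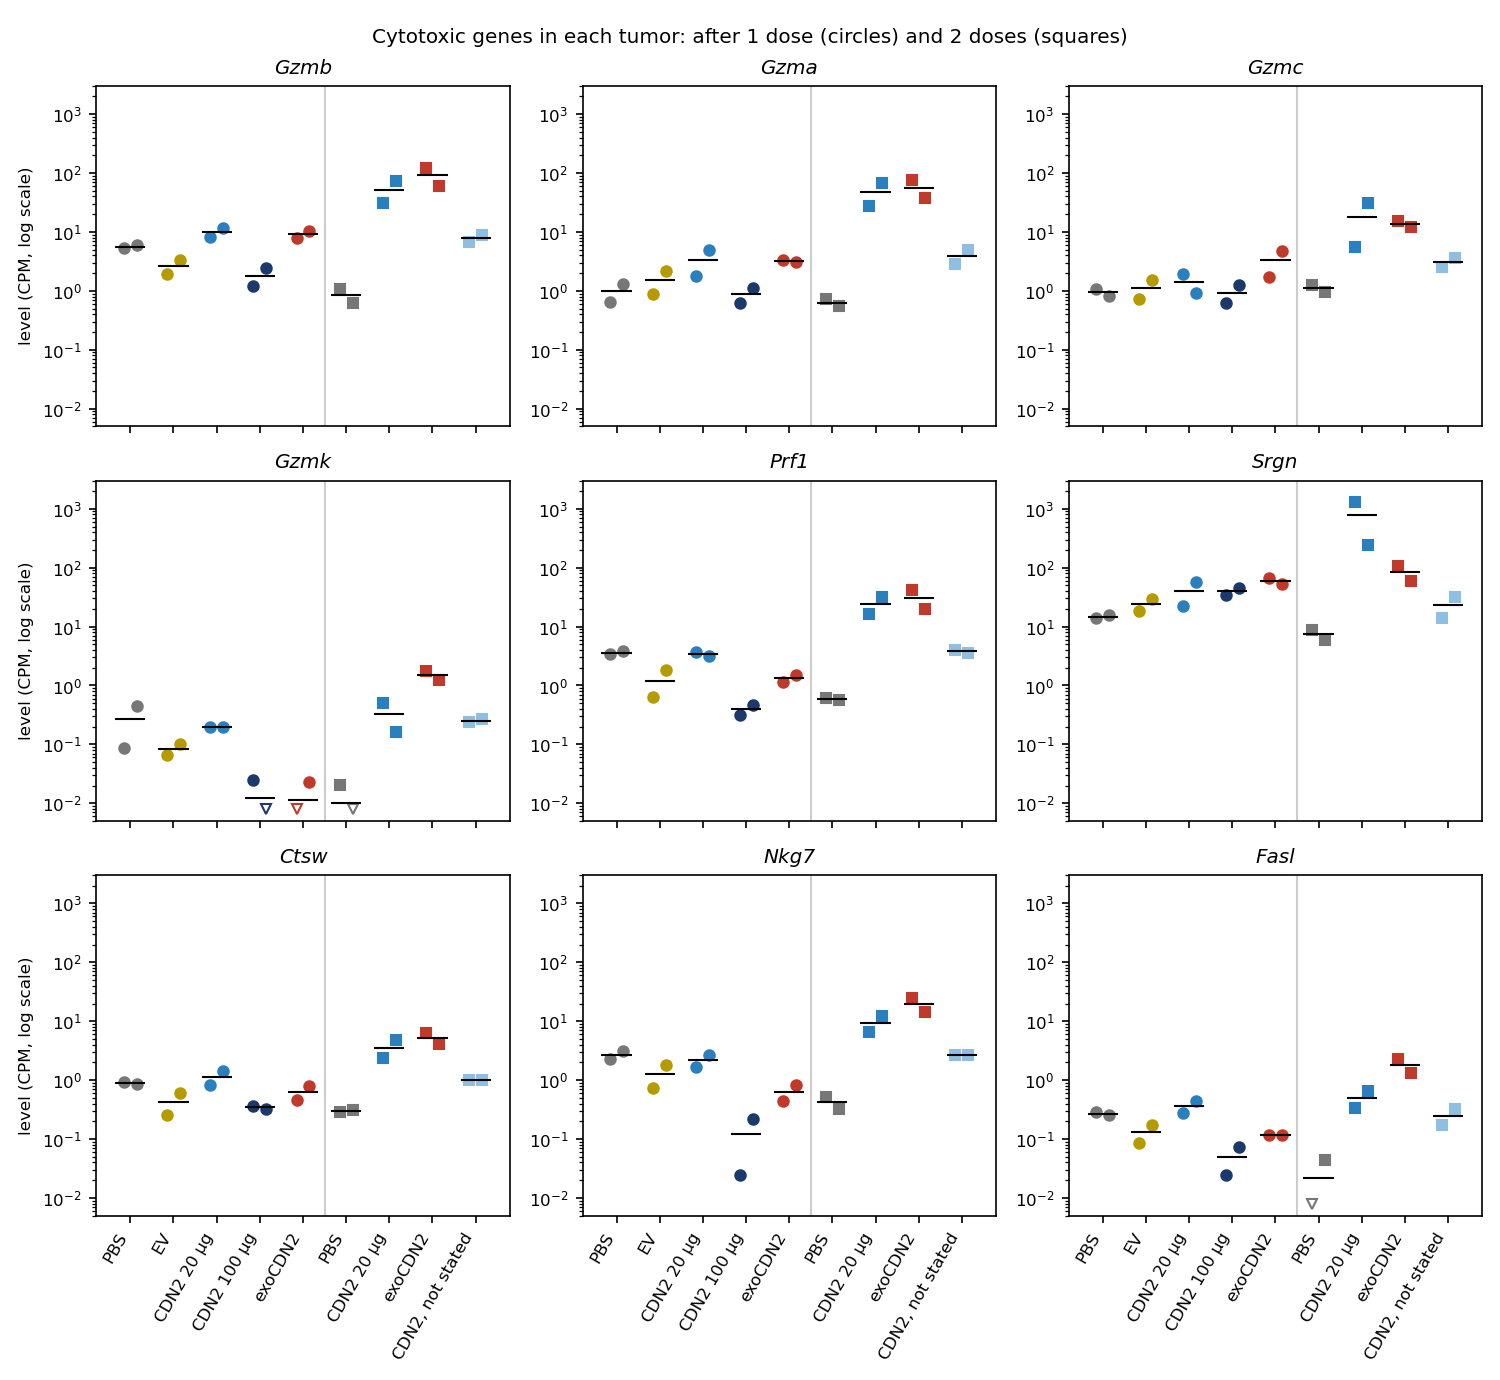
Level of each gene in each of 18 tumors (CPM, log scale), with the group mean as a line, circles for tumors given 1 dose, squares for tumors given 2 doses, and open triangles at the lower edge for tumors with no count. The 2-dose CDN2 (20 µg) and exoCDN2 tumors sit above the 2-dose PBS tumors in every panel, and Srgn is highest in the CDN2 tumors, at 239 and 1314 CPM.

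Granzyme B (Gzmb, ENSMUSG00000015437, chromosome 14:56258838-56262260, minus strand, GRCm38) cleaves caspases and other targets and was the most abundant granzyme per kilobase in PBS tumors after 1 dose. It measured 5.31 and 5.92 CPM in PBS tumors, 1.90 and 3.30 CPM after unloaded EVs, 8.17 and 11.7 CPM after CDN2 at 20 µg, 1.22 and 2.40 CPM after CDN2 at 100 µg and 7.88 and 10.3 CPM after exoCDN2. With 2 doses it measured 1.06 and 0.613 CPM in PBS tumors, 30.5 and 72.8 CPM after CDN2 at 20 µg and 123 and 59.4 CPM after exoCDN2. Among the groups with a stated amount, the order of the group means was therefore exoCDN2 and CDN2 after 2 doses, then CDN2 at 20 µg, exoCDN2 and PBS after 1 dose, then unloaded EVs, CDN2 at 100 µg and PBS after 2 doses. Tumors of neighboring groups overlapped between the 2 agonist forms at each number of doses and between unloaded EVs and CDN2 at 100 µg.

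Granzyme A (Gzma, ENSMUSG00000023132, chromosome 13:113093825-113100981, minus strand) is a tryptase found in T and NK cell granules. It measured between 0.610 and 4.84 CPM in the 10 tumors given 1 dose and 0.547 and 0.715 CPM in PBS tumors given 2 doses, then 27.4 and 67.3 CPM after 2 doses of CDN2 and 75.1 and 37.7 CPM after 2 doses of exoCDN2. Granzyme C (Gzmc, ENSMUSG00000079186, chromosome 14:56231441-56234656, minus strand), a rodent granzyme of activated cytotoxic cells encoded in the same cluster as Gzmb, reached 5.63 and 30.5 CPM with CDN2 and 15.2 and 12.1 CPM with exoCDN2, from 1.27 and 0.941 CPM in PBS. The 2 CDN2 tumors differed more from each other at Gzmc than the exoCDN2 tumors did.

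Granzyme K (Gzmk, ENSMUSG00000042385, chromosome 13:113171608-113225908, minus strand), a tryptase of memory-type CD8+ T cells, was the rarest granzyme of the 4. Its counts were 4 and 23 in the 1-dose PBS tumors, 1 and 0 in the 2-dose PBS tumors, 0 and 1 after 1 dose of exoCDN2, 1 and 0 after CDN2 at 100 µg, and between 3 and 8 in the 4 other tumors given 1 dose. After 2 doses they were 9 and 6 with CDN2 at 20 µg and 89 and 89 with exoCDN2, so the exoCDN2 tumors stood above all others. The annotated gene overlaps Esm1 on the opposite strand, and the sources used here do not state whether reads were counted by strand.

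Perforin (Prf1, ENSMUSG00000037202, chromosome 10:61297833-61304680, plus strand) measured 3.41 and 3.78 CPM in PBS tumors, 0.627 and 1.80 CPM after unloaded EVs, 3.66 and 3.13 CPM after CDN2 at 20 µg, 0.317 and 0.470 CPM after CDN2 at 100 µg and 1.15 and 1.49 CPM after exoCDN2, each after 1 dose. After 2 doses it measured 0.613 and 0.569 CPM in PBS tumors, 16.3 and 32.4 CPM with CDN2 and 41.2 and 19.6 CPM with exoCDN2. Nkg7 (ENSMUSG00000004612, chromosome 7:43437073-43438249, plus strand), a granule membrane protein needed for efficient degranulation, measured 2.25 and 3.13 CPM in the 1-dose PBS tumors and 0.0244 and 0.223 CPM after CDN2 at 100 µg, which was 1 and 9 counts. It reached 6.59 and 12.3 CPM after 2 doses of CDN2 and 24.8 and 14.2 CPM after 2 doses of exoCDN2. Cathepsin W (Ctsw, ENSMUSG00000024910, chromosome 19:5465043-5468507, minus strand), a cysteine protease of cytotoxic cells, ran from 0.259 CPM in an EV tumor to 6.37 CPM in an exoCDN2 tumor after 2 doses. It overlaps Fibp on the opposite strand.

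Fas ligand (Fasl, ENSMUSG00000000817, chromosome 1:161780689-161788495, minus strand), the membrane death ligand, was rare in most groups. Its counts were 13 and 13 in the 1-dose PBS tumors, 0 and 2 in the 2-dose PBS tumors, 1 and 3 after CDN2 at 100 µg, 6 and 25 after 2 doses of CDN2 at 20 µg and 118 and 95 after 2 doses of exoCDN2. In CPM the 2 exoCDN2 tumors were at 2.30 and 1.34, above every other tumor. Serglycin (Srgn, ENSMUSG00000020077, chromosome 10:62493833-62527451, minus strand), the granule proteoglycan core, was the most abundant of the 9 per kilobase in all groups but the 2-dose exoCDN2 group, where Gzmb and Gzma were above it. In CPM, not divided by exon length, the means of that group were 83.4 for Srgn, 91.1 for Gzmb and 56.4 for Gzma. Srgn measured 13.9 and 15.5 CPM in the 1-dose PBS tumors, 67.6 and 53.2 CPM after 1 dose of exoCDN2, 8.70 and 6.02 CPM in the 2-dose PBS tumors, 1314 and 239 CPM after 2 doses of CDN2 and 107 and 59.9 CPM after 2 doses of exoCDN2.

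Levels in PBS tumors differed between the schedules. Tumors given 1 and 2 doses were separate tumors, with injections 3 days apart and collection 24 h after the last. Number of doses and time since the first injection therefore cannot be told apart in any comparison of schedules. Between the 2-dose and the 1-dose PBS tumors, 2 of the 9 genes passed the test and both were lower, with 1.1% of all genes called in this comparison and 1.05% called lower. Genes were tested with the quasi-likelihood method of edgeR, p was adjusted by Benjamini-Hochberg over 16927 genes, and calls needed a ratio over 2 beside an adjusted p under 0.05. Gzmb fell by 2.74 ± 0.54 (SE) on the log2 scale (adjusted p = 0.0285) and Prf1 fell by 2.60 ± 0.51 (adjusted p = 0.0292). Both calls were lost whichever of the 4 tumors was left out. Nkg7 (log2 change -2.67 ± 0.62) and Ctsw (-1.60 ± 0.50) had an unadjusted p under 0.05 and did not pass, as did Fasl, with 2 counts against 26 (ratio 0.0782), and Gzmk, with 1 count against 27 (ratio 0.0377). The share of all genes at that unadjusted limit was not counted. The 10 T cell markers summed to 14.3 and 18.6 CPM in the 1-dose and 6.49 and 6.52 CPM in the 2-dose PBS tumors, with 1 of 10 markers called lower.

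A single dose of unloaded EVs, of CDN2 at 20 µg or of exoCDN2 called none of the 9 genes against PBS. For unloaded EVs, edgeR called 0 of the 9 and 0% of all genes, 3 of the 9 genes (Prf1, Gzmb and Ctsw) had an unadjusted p under 0.05, each with lower values than in PBS, and DESeq2 called 0. Ctsw, with the largest p of these, ranked 518 of 16927 genes by p. For CDN2 at 20 µg, edgeR called 0 of the 9 against 3.14% of all genes, Gzma and Srgn had an unadjusted p under 0.05, and DESeq2 called 1, Gzma, at a log2 change of 1.77. Srgn ranked 2622 of 16927 genes by its edgeR p, so at least 2622 genes met the unadjusted limit. The edgeR value for Gzma was 1.74 ± 0.63 (adjusted p = 0.176).

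For 1 dose of exoCDN2, edgeR called 0 of the 9 against 2.62% of all genes, and 6 of the 9 had an unadjusted p under 0.05. Gzmc, with the largest p of these, ranked 2150 of 16927 genes by p, so at least 2150 genes met that limit. Those 6 did not share a direction. Gzma (log2 change 1.68 ± 0.62), Gzmc (1.78 ± 0.73) and Srgn (2.04 ± 0.65) were above PBS in both tumors, and Prf1 (-1.45 ± 0.48), Nkg7 (-2.10 ± 0.60) and Gzmk were below it in both. DESeq2 called 4 of them, Gzma and Srgn higher and Prf1 and Nkg7 lower. Gzmk had 1 count over the 2 exoCDN2 tumors against 27 over the 2 PBS tumors, a ratio of 0.0379 with a 95% counting interval of 0.000927 to 0.230, which covers counting error only and not the spread between the PBS tumors. Against unloaded EVs, 1 dose of exoCDN2 called 0 of the 9 genes by edgeR against 2.95% of all genes. Gzmb alone had an unadjusted p under 0.05 there, at a log2 difference of 1.81 ± 0.49 (adjusted p = 0.0731), and DESeq2 called 1 gene.

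CDN2 at 100 µg called 2 of the 9 genes, both lower than PBS, against 2.44% of all genes in either direction and 0.62% lower. Prf1 was lower by a log2 change of -3.18 ± 0.55 (adjusted p = 0.00864) and Nkg7 by -4.42 ± 0.74 (adjusted p = 0.00766). The tumors of the groups did not overlap at either gene, but the share of all genes without overlap was not counted. The Prf1 call was lost whichever of the 4 tumors was left out (adjusted p between 0.0547 and 0.116), and the Nkg7 call was lost without replicate 1 of the 100 µg group (0.0802) or replicate 2 of the PBS group (0.0673). Both were also lost against the PBS tumors of both schedules pooled, at log2 changes of -2.40 and -3.63. Beside these, 4 of 10 T cell markers were called lower and 0 of 8 NK cell markers, whose summed levels were 9.76 and 9.77 CPM (T cell) and 1.49 and 1.81 CPM (NK cell), against 14.3 and 18.6 CPM and 2.93 and 5.01 CPM in PBS. The part of T cell number in the fall of Prf1 and Nkg7 was not tested.

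The same 2 genes differed between the amounts of free agonist. With 100 µg against 20 µg, Prf1 had a log2 difference of -3.10 ± 0.55 (adjusted p = 0.0413) and Nkg7 of -4.13 ± 0.75 (adjusted p = 0.0446), so 2 of the 9 genes were called against 0.455% of all genes and 0.224% lower. Gzmb followed at -2.46 ± 0.51 (adjusted p = 0.0539). Neither call remained, whichever of the 4 tumors was left out. Srgn had nearly the same mean in both groups, with a log2 difference of 0.03 ± 0.62, and its tumors overlapped.

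**Figure D2:**
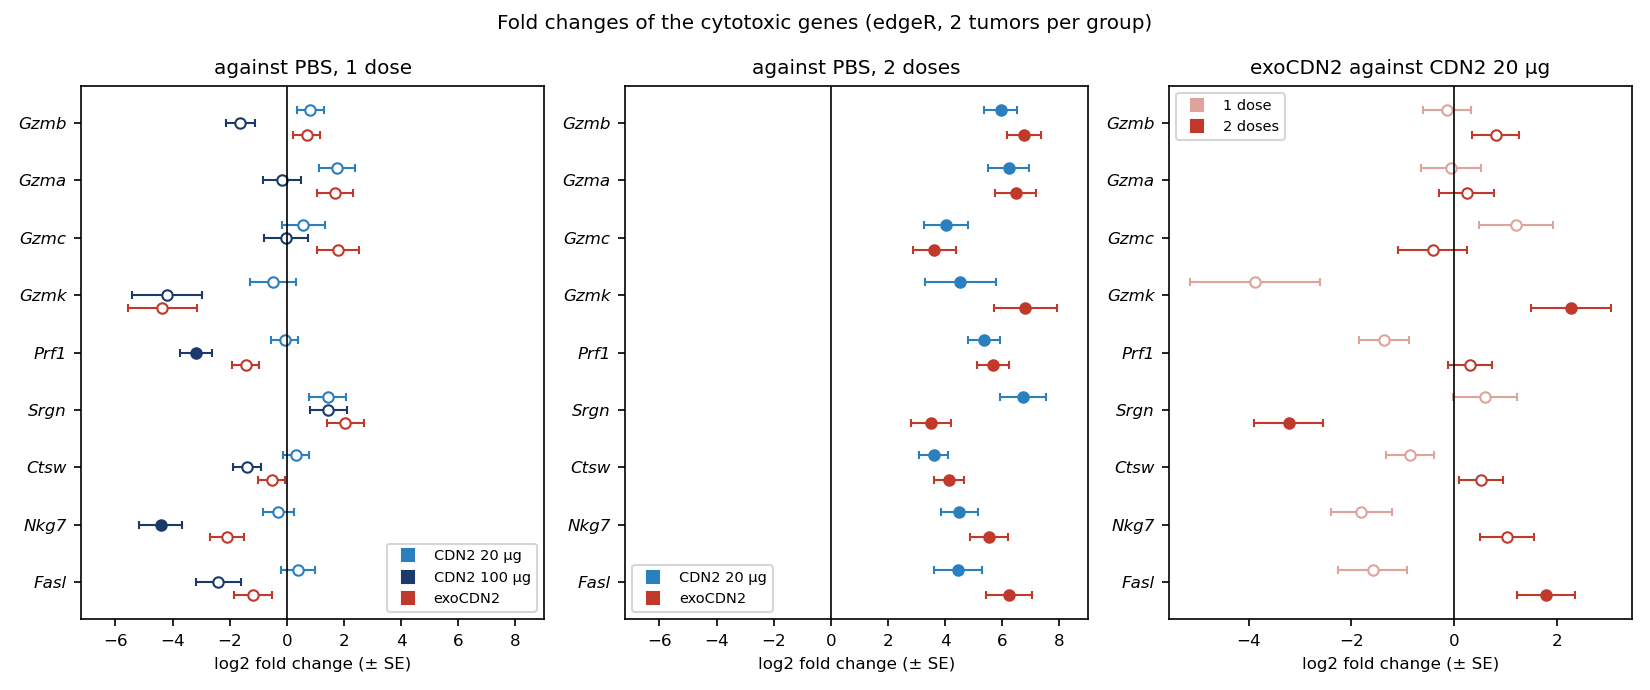
Log2 fold changes (points) with their standard errors (bars) for the 9 genes, against PBS after 1 dose, against PBS after 2 doses and between exoCDN2 and CDN2 at 20 µg, from edgeR with 2 tumors per group. Filled points passed the test, which was all 18 points of the middle panel, Prf1 and Nkg7 after CDN2 at 100 µg on the left, and Fasl, Gzmk and Srgn after 2 doses on the right.

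After 2 doses, CDN2 at 20 µg and exoCDN2 were each compared with the same PBS tumors. CDN2 called 9 of the 9 genes, all higher, in a comparison where 30.6% of all genes were called and 20% were called higher. exoCDN2 also called 9 of the 9, all higher, where 11.3% of all genes were called and 8.87% higher. The PBS tumors of this schedule were themselves the lowest or next to lowest group for 8 of the 9 genes (Gzmc was the exception).

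The 4 granzymes rose by different amounts. Gzmb was 61.4-fold higher with CDN2 (log2 change 5.94 ± 0.58, adjusted p = 3.35e-05) and 108-fold higher with exoCDN2 (6.76 ± 0.60, adjusted p = 2.14e-05). Gzma was higher by a log2 change of 6.23 ± 0.71 with CDN2 and 6.47 ± 0.72 with exoCDN2, and Gzmc by 4.04 ± 0.77 and 3.62 ± 0.76. For Gzmk, with 1 count over both PBS tumors, the ratio of counts per scaled library was 25.6 (95% counting interval 3.95 to 1080) with CDN2 and 138 (24.4 to 5470) with exoCDN2. Its CDN2 call was lost without replicate 1 of the CDN2 tumors (adjusted p = 0.0651) or replicate 2 of the PBS tumors (0.0623), and against the PBS tumors of both schedules pooled (log2 change 1.09, adjusted p = 0.408).

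Perforin and the other granule genes also rose. Prf1 was 41.1-fold higher with CDN2 and 51.1-fold higher with exoCDN2, with log2 changes of 5.36 ± 0.55 and 5.68 ± 0.56. Nkg7 rose by 4.49 ± 0.65 and 5.52 ± 0.67 on this scale, and Ctsw by 3.60 ± 0.51 and 4.13 ± 0.51. Srgn showed the widest gap between the 2 forms, at 6.72 ± 0.80 with CDN2 and 3.50 ± 0.69 with exoCDN2. Without replicate 2 of the PBS tumors, the exoCDN2 calls of Srgn (adjusted p = 0.0653) and Gzmc (0.0792) were lost.

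Fasl, with 2 counts over the PBS tumors, had a count ratio of 26.5 (95% counting interval 6.74 to 229) with CDN2 and 82.4 (22.5 to 685) with exoCDN2. Both comparisons were called (adjusted p = 0.00131 and 0.000302), and the CDN2 call was lost against the PBS tumors of both schedules pooled (log2 change 1.81, adjusted p = 0.0777). The median log2 change of the 9 genes was 4.53 with CDN2 and 5.68 with exoCDN2, and 4.49 and 4.61 when Gzmk and Fasl were set to the lower end of their counting intervals. Over all genes tested the medians were 0 and 0.0064.

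Markers of cytotoxic cells and of other cells moved in the same tumors. The 10 T cell markers summed to 25.1 and 28.4 CPM after 2 doses of CDN2 and 65.2 and 50.2 CPM after 2 doses of exoCDN2, against 6.49 and 6.52 CPM in PBS, with 8 and 9 of 10 called higher. The 8 NK cell markers summed to 10.4 and 15.8 CPM with CDN2, 40.6 and 27.8 CPM with exoCDN2 and 1.86 and 1.05 CPM in PBS, with 6 and 8 of 8 called higher. Neutrophil markers rose further, to 964 and 219 CPM with CDN2 and 72.2 and 23.6 CPM with exoCDN2 from 2.39 and 1.62 CPM, with 7 and 6 of 7 called higher. In the CDN2 tumors 4 of 5 mast cell markers and 4 of 4 platelet markers were also called higher, and in the exoCDN2 tumors none of either. In the CDN2 tumors 4 of 7 melanoma markers were called lower and 3 of 4 skeletal muscle markers higher, with muscle sums of 2986 and 1395 CPM against 127 and 233 CPM in PBS. Of 6 macrophage markers, 4 were called higher and 1 lower with CDN2 and 2 higher with exoCDN2. How much of each gene's rise came from each cell type was not tested.

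exoCDN2 and CDN2 at 20 µg differed at 3 of the 9 genes after 2 doses, in a comparison where 19.4% of all genes were called, 7.34% higher and 12% lower with exoCDN2. The 3 genes went in both directions. Fasl was higher with exoCDN2 by a log2 difference of 1.79 ± 0.57 (adjusted p = 0.0292) and Gzmk by 2.28 ± 0.78 (adjusted p = 0.0389), whereas Srgn was lower by -3.22 ± 0.67 (adjusted p = 0.00521). The tumors of the 2 groups did not overlap at these 3 genes, but the share of all genes without overlap was not counted. The amounts of agonist differed between the forms (0.1 and 20 µg), so form and amount cannot be told apart.

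Each of the 3 calls depended on at least 1 tumor. Without replicate 2 of the exoCDN2 tumors all 3 calls were lost (adjusted p = 0.0578 for Fasl, 0.0917 for Gzmk and 0.0570 for Srgn), and without replicate 1 only Srgn stayed. Leaving out replicate 1 of the CDN2 tumors ended the Fasl call (log2 difference 1.44, adjusted p = 0.144), and leaving out replicate 2 ended the Gzmk call (1.59, adjusted p = 0.151). DESeq2 called 2 of the 3, not Gzmk (adjusted p = 0.0643). A fit of only these 4 tumors called 0 of the 9 and 30 genes in all, against 3279 genes in the fit of all 16 tumors. In the fit of all 16 tumors, 3 of the 9 had an unadjusted p under 0.05. There 6337 of 16927 genes had an adjusted p under 0.05 with no limit on the ratio.

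The other 6 genes did not pass between the forms after 2 doses. The log2 differences were 0.81 ± 0.45 for Gzmb, 0.25 ± 0.54 for Gzma, -0.41 ± 0.67 for Gzmc, 0.32 ± 0.44 for Prf1, 0.53 ± 0.43 for Ctsw and 1.04 ± 0.53 for Nkg7. The groups overlapped at each of these 6 genes except Nkg7, and how many of all genes lacked overlap was not counted. Without replicate 2 of the CDN2 tumors Gzmb was called higher with exoCDN2, at 1.62 (adjusted p = 0.0160). Beside these genes, 3 of 10 T cell markers were called higher with exoCDN2, among them Cd8a (log2 difference 2.38) and Cd3e (1.95), with 0 of 8 NK cell markers called. Beside Srgn, 6 of 7 neutrophil markers and 4 of 4 platelet markers were called lower with exoCDN2, and their part in the Srgn difference was not tested.

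After 1 dose the 2 forms called 0 of the 9 genes apart, against 0.608% of all genes. By edgeR, 4 of the 9 (Fasl, Prf1, Gzmk and Nkg7) had an unadjusted p under 0.05, all lower with exoCDN2, and DESeq2 called 1, Nkg7, at a log2 difference of -1.78. Fasl ranked 2732 of 16927 genes by its edgeR p, so at least 2732 genes met the unadjusted limit. The change in the difference between the forms from 1 to 2 doses, tested as an interaction, was called for 4 of the 9 genes against 8.31% of all genes (2.97% higher and 5.34% lower). Fasl (3.37 ± 0.88), Gzmk (6.15 ± 1.47) and Nkg7 (2.84 ± 0.80) shifted toward exoCDN2 and Srgn (-3.83 ± 0.91) toward CDN2, with adjusted p between 0.0290 and 0.0458. Leaving out 1 of the 8 tumors at a time moved this count both down and up, and the number called over all genes moved widely as well.

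Levels after 2 doses of CDN2 at 20 µg were higher than after 1 dose for 7 of the 9 genes, in a comparison where 20.8% of all genes were called and 14.4% were called higher. Fewer were called without replicate 1 of the 1-dose tumors or replicate 2 of the 2-dose tumors. A fit of only these 4 tumors called 2 of the 9 and 629 genes in all, against 3521 genes in the main fit. Gzma rose by 3.84 ± 0.62 on the log2 scale, Gzmc by 3.68 ± 0.76, Prf1 by 2.84 ± 0.48, Gzmb by 2.38 ± 0.48, Nkg7 by 2.11 ± 0.56, Ctsw by 1.67 ± 0.46 and Srgn by 4.30 ± 0.71. Fasl (0.55 ± 0.61) and Gzmk (0.63 ± 0.87) did not pass, and their tumors overlapped between the schedules. In this comparison 0 of 10 T cell markers were called by edgeR in either direction (median log2 change 0.19), and 4 of 8 NK cell markers were called higher. Gzmb stood at 51.6% and 46.1% of the summed T cell marker level after the first dose and at 122% and 256% after the second. For Prf1 these shares were 23.2% and 12.3%, then 64.9% and 114%.

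Levels after 2 doses of exoCDN2 were also higher than after 1 dose for 7 of the 9 genes, where 7.44% of all genes were called and 5.1% higher. Fasl (3.92 ± 0.64) and Gzmk were called higher, whereas Srgn (0.46 ± 0.62) and Gzmc (2.06 ± 0.70, adjusted p = 0.0772) did not pass. Nkg7 changed most of those with ample counts, by 4.95 ± 0.64, followed by Prf1 (4.52 ± 0.52), Gzma (4.15 ± 0.62), Gzmb (3.33 ± 0.50) and Ctsw (3.06 ± 0.48). Here 8 of 10 T cell markers and 7 of 8 NK cell markers were called higher as well. Gzmb stood at 72.6% and 70.8% of the T cell marker level after the first dose and at 188% and 118% after the second, and Prf1 at 10.6% and 10.3%, then 63.2% and 38.96%. Without replicate 1 of the 1-dose exoCDN2 tumors, fewer of the 9 genes were called, and fewer genes over all as well.

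Relative to PBS, the change from 1 to 2 doses was called for 9 of the 9 genes with CDN2 (16.8% of all genes, 11.7% higher) and for 7 of the 9 with exoCDN2 (6.82% of all genes, 5.12% higher). Fasl and Gzmk were not called between 1 and 2 doses of CDN2 itself. In PBS tumors they had 26 and 27 counts after 1 dose and 2 and 1 after 2 doses. The exceptions with exoCDN2 were Srgn (1.46 ± 0.89) and Gzmc (1.84 ± 1.02). The largest of these changes at genes with ample counts was that of Nkg7 with exoCDN2, 7.62 ± 0.89. With 1 tumor left out at a time, fewer of the 9 were called with CDN2 in every fit, and fewer or as many with exoCDN2. The number called over all genes moved as well.

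The tumors given 2 doses of CDN2 in an unstated amount lay between the PBS tumors and the other 2-dose tumors at 9 of the 9 genes by group mean. Gzmb measured 6.87 and 9.004 CPM and Prf1 4.07 and 3.54 CPM. In a fit of all 18 tumors (17110 genes), Gzmb (log2 change 3.23 ± 0.52, adjusted p = 0.00518) and Prf1 (2.68 ± 0.49, adjusted p = 0.0143) were called higher than PBS, 2 of the 9 genes against 0.959% of all genes and 0.918% higher. With 1 tumor left out, this count moved both down and up, as did the number called over all genes. Neither call remained without replicate 2 of either group, where fewer genes were called over all. exoCDN2 was above these tumors at 7 of the 9 genes against 6.38% of all genes (4.97% higher), with Gzma (3.87 ± 0.60) and Gzmb (3.52 ± 0.48) showing the widest gaps, and Srgn and Gzmc not called. That count fell without replicate 2 of the unstated group or replicate 1 of the exoCDN2 group, and so did the number called over all genes.

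Other genes of the killing pathway were described from 5 lists. Of 5 other granzymes tested, 4 were higher than PBS after 2 doses of each form. Log2 changes of Gzmf were 5.84 ± 1.18 with CDN2 and 7.30 ± 1.18 with exoCDN2, and those of Gzmd 4.38 ± 0.93 and 4.38 ± 0.92, while Gzmm did not pass with either and Gzmn was at or near 0 counts in every tumor and was not tested. Granzymes B, C, D, E, F and G are encoded in 1 cluster on chromosome 14 and resemble each other, so their counts are less certain than those of other genes. The longest exact stretch shared between annotated transcripts was 49 bases for Gzmb and Gzmc, 68 bases for Gzmc and Gzme and 96 bases for Gzmd and Gzme, each shorter than a single read of these libraries, and 19 bases or fewer between Gzmk or Gzma and any other granzyme.

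Of 7 genes that process or restrain granzymes, 6 were called higher after 2 doses of CDN2 and 6 after 2 doses of exoCDN2. Cst7 (cystatin F, an inhibitor of the cathepsins that activate granzymes) rose by 5.14 ± 0.65 and 4.56 ± 0.64 on the log2 scale, and Serpinb9, the granzyme B inhibitor, by 2.05 ± 0.30 and 2.73 ± 0.31. Ctsc, the protease that activates granzymes, was called with exoCDN2 (1.47 ± 0.24) and not with CDN2. Of 11 genes of granule transport and exocytosis, CDN2 called 4 higher and 2 lower and exoCDN2 2 higher. Over all genes, 20% and 8.87% were called higher in these comparisons. Unc13d, a priming factor of granule fusion, rose by 2.34 ± 0.30 and 2.37 ± 0.30, and Coro1a by 2.69 ± 0.40 and 2.72 ± 0.40, while Lyst (-1.49 ± 0.33) and Sytl2 (-1.35 ± 0.28) were lower with CDN2.

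Among death receptors and other death ligands, both ligand genes named here were called after 1 dose of each agonist group. Tnfsf10, which encodes the death ligand TRAIL, was higher by 2.98 ± 0.32 after 1 dose of CDN2 at 20 µg, 3.84 ± 0.33 after exoCDN2 and 2.41 ± 0.31 after CDN2 at 100 µg, and Tnf by 3.66 ± 0.60, 4.01 ± 0.61 and 2.87 ± 0.59. Of 9 such genes, 2, 4 and 2 were called higher in these comparisons, and 4 and 5 after 2 doses of CDN2 and exoCDN2. Fas, the receptor of Fas ligand, rose by 4.55 ± 0.61 after 2 doses of CDN2 and 2.64 ± 0.57 after 2 doses of exoCDN2, and was lower with exoCDN2 than with CDN2 (-1.91 ± 0.52, adjusted p = 0.0166), the opposite direction to Fasl. Tnfsf10 was lower in 2-dose than in 1-dose tumors with CDN2 (-1.996 ± 0.31), exoCDN2 (-1.89 ± 0.30) and PBS (-2.71 ± 0.35). Between the same schedules Gzmb and Prf1 were higher with both agonists and lower with PBS.

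Of 7 transcription factors of cytotoxic lymphocytes tested, 4 were higher after 2 doses of CDN2 and 5 after 2 doses of exoCDN2. Tbx21, which encodes T-bet, rose by 2.56 ± 0.53 and 4.61 ± 0.50, and Runx3 by 4.95 ± 0.65 and 3.58 ± 0.62. After CDN2 at 100 µg, Tbx21 was lower than PBS (-2.97 ± 0.53), as Prf1 and Nkg7 were, and between the PBS schedules it was lower after 2 doses (-2.78 ± 0.51), as Prf1 and Gzmb were.

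**Figure D3:**
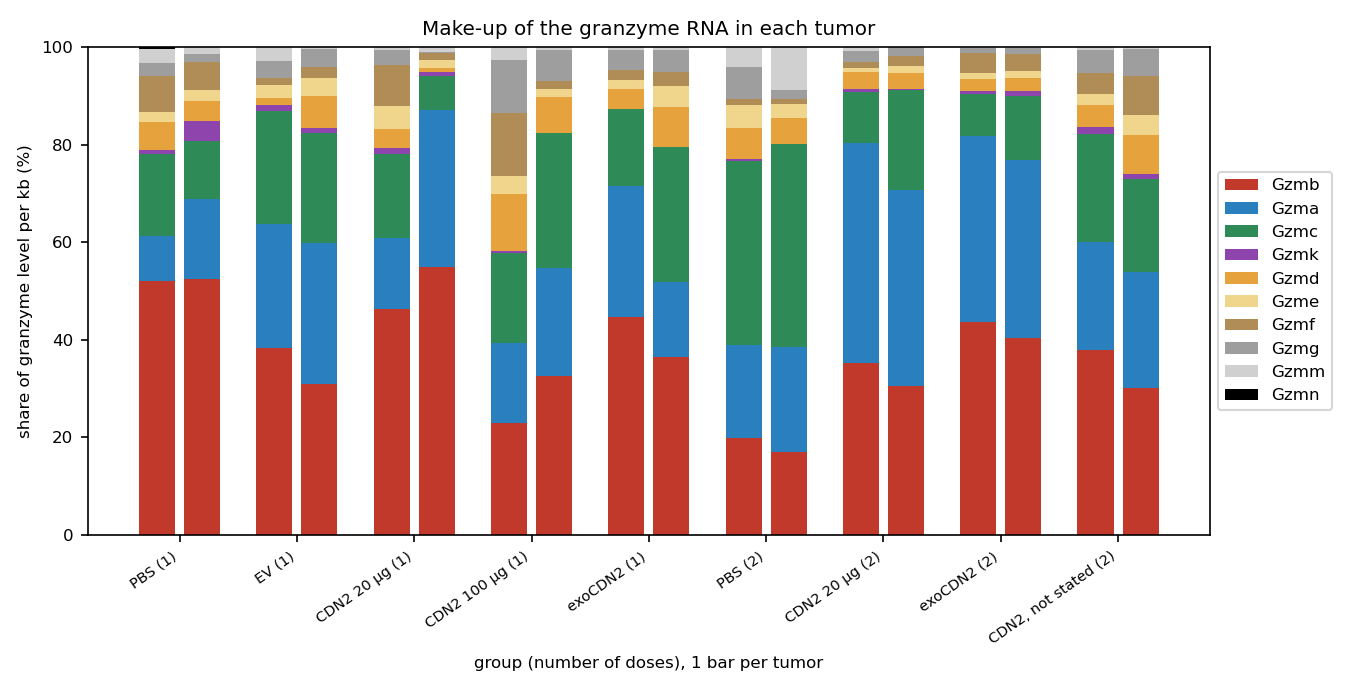
Share of each granzyme in the summed granzyme level per kilobase of exon (%), with 1 bar for each of 18 tumors and the number of doses in parentheses. Gzmb made up 52.0% and 52.4% of the sum in the 1-dose PBS tumors and 19.8% and 16.9% in the 2-dose PBS tumors, and Gzma 45.2% and 40.3% after 2 doses of CDN2.

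Granzyme make-up, computed on CPM per kilobase of exon, changed between groups. In the 1-dose PBS tumors Gzmb held 52.0% and 52.4% of the granzyme level and Gzma 9.17% and 16.5%. After 2 doses of PBS Gzmc was the leading granzyme, at 37.9% and 41.7%, with Gzmb at 19.8% and 16.9%. With 2 doses of CDN2 they were 45.2% and 40.3% Gzma and 35.2% and 30.5% Gzmb, and with 2 doses of exoCDN2 38.0% and 36.5% Gzma and 43.6% and 40.3% Gzmb. Per kilobase, Gzmb thus led in both exoCDN2 tumors and Gzma in both CDN2 tumors, although neither gene was called between these groups. The order in the CDN2 tumors depended on the division by exon length. In CPM, Gzmb was above Gzma in both of them, at 30.5 against 27.4 CPM and 72.8 against 67.3 CPM. Gzmk did not exceed 4.16% in any tumor.

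**Figure D4:**
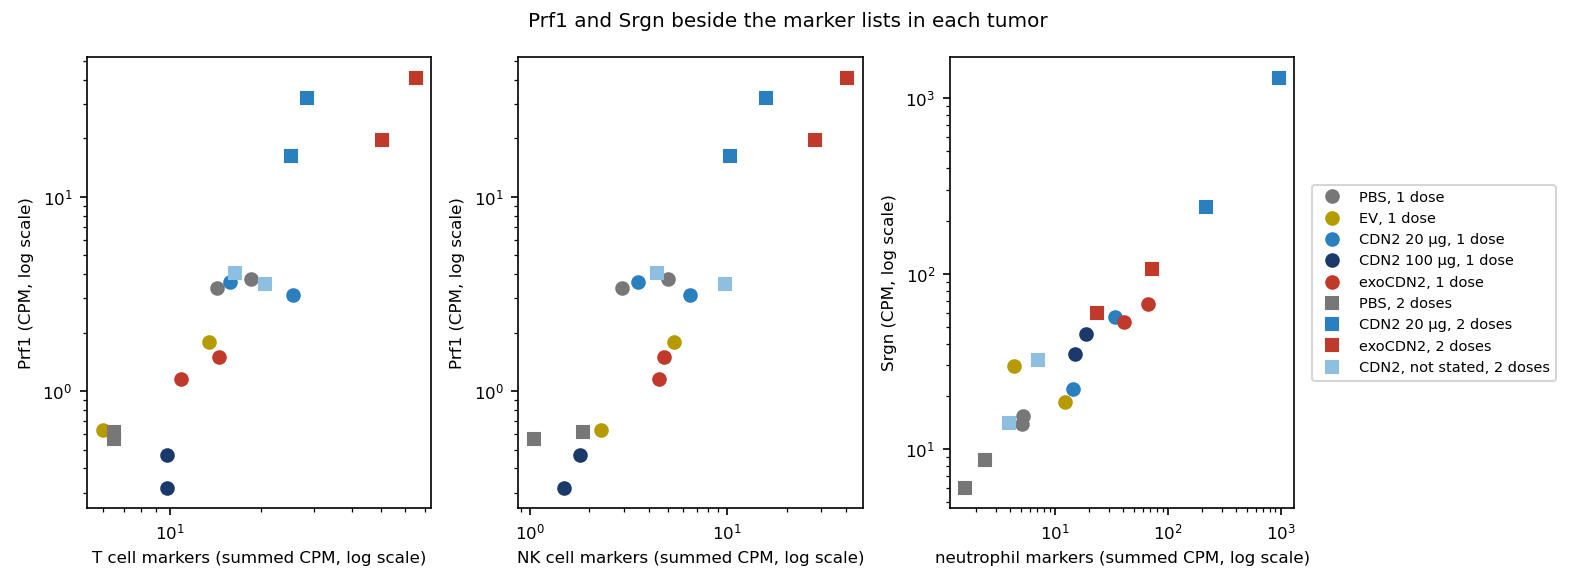
Prf1 against the summed T cell and NK cell markers and Srgn against the summed neutrophil markers in each of 18 tumors (CPM, both axes on a log scale), with circles for 1 dose and squares for 2 doses. Prf1 is highest in the 4 tumors given 2 doses of CDN2 (20 µg) or exoCDN2, at 16.3 to 41.2 CPM, and Srgn in the tumor with the most neutrophil markers (964 CPM), at 1314 CPM.

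Across the 16 tumors of stated amount, the genes other than Srgn varied together. Pearson's r of log2 CPM between pairs of these 8 genes ran from 0.571 (Gzmc and Gzmk) to 0.974 (Prf1 and Ctsw), and Srgn correlated with them at 0.436 (Gzmk) to 0.787 (Gzma). These values describe tumors that share the groups and therefore the treatments, and they are given without a test. The median r of Prf1 was 0.861 with the 10 T cell markers, 0.847 with the 8 NK cell markers and 0.543 with the 7 neutrophil markers. For Srgn the same medians were 0.442, 0.435 and 0.932. With the 5 mast cell markers tested and the 4 platelet markers, the medians were 0.829 and 0.801 for Srgn and 0.516 and 0.381 for Prf1.

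By the same r, the 2 closest other genes of each of the 9 included genes of lymphocytes, of myeloid cells and of neither. Il2rb, a receptor chain for interleukin 2 and 15, was among the 2 most like Prf1 (0.975), Nkg7 (0.963) and Ctsw (0.965). The other gene was Spic (0.966), a transcription factor of macrophages, for Prf1, Sept1 (0.971) for Nkg7 and Sirpb1c (0.963) for Ctsw. Gzma had Gm2619 (0.967) and Sirpb1c (0.959), and Gzmb had Ms4a4b (0.965) and Uba7 (0.963), which encodes an enzyme of the interferon-induced ISG15 pathway. Gzmc had Gzme (0.941) and Klrg1 (0.935), Gzmk had Cxcr6 (0.952), a chemokine receptor of tissue T cells, and Clec12a (0.928), a lectin of myeloid cells, and Fasl had Sugct (0.964) and Itgal (0.962). Srgn had Samsn1 (0.994) and Il1r2 (0.992), a decoy interleukin 1 receptor found on neutrophils.

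Promoter windows of the genes (250 bases before to 50 bases after the RefSeq start, GRCm38.p6) are shown for genes the results turn on: Prf1 and Nkg7, which fell with 100 µg of CDN2, Gzmb and Gzma, the leading granzymes after 2 doses, and Srgn, which varied apart. They are read 5′ to 3′ on the strand of the gene, and capitals mark every match, on either strand, to the T-box motif AGGTGT, the GAS motif TTCNNNGAA, the ISRE core (2 GAAA repeats with any 2 bases between them), the AP-1 motif TGANTCA or the RUNX motif TGTGGT. RefSeq's table held windows for 8 of the 9 genes, with a pair of them for Srgn, of which the second is shown.
Prf1, chr10:61297586-61297885, plus strand: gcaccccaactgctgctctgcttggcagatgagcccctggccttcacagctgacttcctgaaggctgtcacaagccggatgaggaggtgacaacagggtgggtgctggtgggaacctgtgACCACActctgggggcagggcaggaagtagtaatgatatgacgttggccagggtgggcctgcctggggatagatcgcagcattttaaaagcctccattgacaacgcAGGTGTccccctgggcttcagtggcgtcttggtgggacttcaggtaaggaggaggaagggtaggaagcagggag
Nkg7, chr7:43436888-43437187, plus strand: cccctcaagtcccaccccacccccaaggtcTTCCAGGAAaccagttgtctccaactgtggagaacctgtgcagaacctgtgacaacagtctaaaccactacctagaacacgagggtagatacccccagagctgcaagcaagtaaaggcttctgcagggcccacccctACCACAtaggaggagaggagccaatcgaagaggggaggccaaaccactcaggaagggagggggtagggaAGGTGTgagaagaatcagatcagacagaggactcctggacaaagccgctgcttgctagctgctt
Gzmb, chr14:56262285-56262584, minus strand: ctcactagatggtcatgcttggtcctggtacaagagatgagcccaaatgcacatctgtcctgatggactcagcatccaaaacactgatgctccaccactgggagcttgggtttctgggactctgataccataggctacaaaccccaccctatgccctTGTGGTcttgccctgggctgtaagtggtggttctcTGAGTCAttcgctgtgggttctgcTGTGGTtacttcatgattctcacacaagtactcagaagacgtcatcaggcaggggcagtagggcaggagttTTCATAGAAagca
Gzma, chr13:113100932-113101231, minus strand: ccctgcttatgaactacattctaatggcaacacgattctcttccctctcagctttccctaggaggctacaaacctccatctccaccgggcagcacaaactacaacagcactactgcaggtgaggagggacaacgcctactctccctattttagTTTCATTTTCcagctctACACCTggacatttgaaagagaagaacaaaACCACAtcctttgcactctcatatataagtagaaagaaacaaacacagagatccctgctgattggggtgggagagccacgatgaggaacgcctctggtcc
Srgn, second window, chr10:62507708-62508007, minus strand: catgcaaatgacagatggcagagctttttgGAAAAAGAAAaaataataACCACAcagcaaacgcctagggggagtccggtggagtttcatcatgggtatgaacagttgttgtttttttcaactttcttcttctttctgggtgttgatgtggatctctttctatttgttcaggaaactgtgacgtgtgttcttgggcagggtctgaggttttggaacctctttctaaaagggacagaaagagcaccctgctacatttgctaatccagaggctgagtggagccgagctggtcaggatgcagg

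The T-box motif was found in the windows of 5 of these 8 genes (Gzma, Gzmc, Gzmk, Prf1 and Nkg7), and in 13.7% of all 32851 windows of the same length. The RUNX motif was found in 6 of the 8 (Gzma, Gzmb, Gzmc, Prf1, Nkg7 and Srgn) and in 16.8% of all windows. For the others the counts were 2 of 8 for GAS (Gzmb and Nkg7, 8.3% of all windows), 2 of 8 for the ISRE core (Gzma and Srgn, 3.44%) and 1 of 8 for AP-1 (Gzmb, 7.81%). In Prf1 and Nkg7 the T-box motif began 24 and 14 bases before the annotated start. Neither Fasl nor the first Srgn window held a match to any of the 5 motifs. These matches describe letters in a window and were not tested as binding sites.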

How the data were processed

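RNA was sequenced from 18 B16F10 tumors in 9 groups of 2. The deposited table holds expected counts per gene, which the authors estimated with RSEM on Ensembl gene models after alignment to the mouse genome (mm10 in the submitters' processing notes). Between 8.75% and 12.7% of a tumor's values over all genes were not whole, and they were rounded. Library totals were 21608895 to 65983630, and counting intervals at the 95% level cover counting error only.

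Genes with a count of at least 10 (scaled to library size) in at least 2 tumors and at least 15 in all were kept (16927 of 50600). Counts of 16 tumors in 8 groups were fitted with 1 mean per group in edgeR 4.0.16 (R 4.3.3, limma 3.58.1), with TMM factors, quasi-likelihood tests and Benjamini-Hochberg adjustment, which left 8 residual degrees of freedom. Standard errors were the log2 change over the square root of its F statistic. The tumors given CDN2 in an unstated amount were tested in a fit of all 18. An exact permutation test of 2 against 2 cannot give a p below 0.333. The paper describes the tumors of a group as 2 biological replicates, and calls the data representative of a larger number of replicates per treatment. For each gene, spread was estimated over all groups of a fit together, so p-values do not rest on the spread of the compared tumors alone. The 2-dose CDN2 (20 µg) pair differed more than any other pair, with 27.1% of genes over 2-fold apart.

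The 9 genes and all lists were chosen with earlier results of these data known, and each list is described by counts. Named genes were the 9 themselves, members of fixed pathway and marker lists, and for each of the 9 the 2 genes with the highest r over 16 tumors. The groups given 2 doses share their PBS tumors, as do the groups given 1 dose. Alternatives were DESeq2 1.42.0, RLE factors, no filter, a replicate block, other sets of tumors, pooled PBS tumors and leaving out each tumor in turn. The method was tested on simulated data. Gene positions came from GENCODE (GRCm38) and promoters from RefSeq (GRCm38.p6).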

Additional observations from a re-analysis of the deposited data

Results flagged for a closer look

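A change between schedules, tested as an interaction in edgeR, was called for several of the 9 genes. Values are log2 differences ± SE. They are differences of 2 contrasts, and those of Gzmk and Fasl rest on groups with 0 to 2 counts and depend on the count added before taking logs.

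The effect of CDN2 at 20 µg against PBS was larger after 2 doses than after 1 dose for 9 of the 9 genes. For Fasl, Gzmk, Prf1 and Gzmb, part of the difference lies in the PBS tumors, where all 4 were lower after 2 doses. Fasl had 2 PBS counts after 2 doses against 26 after 1 dose, and Gzmk 1 against 27. Between 1 and 2 doses of CDN2 itself neither was called, with means of 0.358 and 0.501 CPM for Fasl and 0.196 and 0.333 CPM for Gzmk. The difference was 5.44 ± 0.70 for Prf1 (adjusted p = 0.00158), 5.30 ± 0.94 for Srgn (0.00446), 5.12 ± 0.72 for Gzmb (0.00203), 5.01 ± 1.52 for Gzmk (0.036), 4.78 ± 0.84 for Nkg7 (0.00427), 4.48 ± 0.90 for Gzma (0.00719), 4.05 ± 1.07 for Fasl (0.0213), 3.46 ± 1.05 for Gzmc (0.0355) and 3.27 ± 0.68 for Ctsw (0.00802).

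For exoCDN2 against PBS the same difference was called for 7 of the 9 genes. It was 11.16 ± 1.62 for Gzmk (adjusted p = 0.00208), 7.62 ± 0.89 for Nkg7 (0.000697), 7.43 ± 1.05 for Fasl (0.00192), 7.12 ± 0.72 for Prf1 (0.000562), 6.06 ± 0.73 for Gzmb (0.000814), 4.79 ± 0.90 for Gzma (0.00779) and 4.66 ± 0.69 for Ctsw (0.00223). Part of each of these differences lies in the PBS tumors, where Prf1 and Gzmb were lower after 2 doses.

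The difference between exoCDN2 and CDN2 at 20 µg, which does not involve PBS, changed between the schedules for 4 of the 9 genes, by 6.15 ± 1.47 for Gzmk (adjusted p = 0.0297), 3.37 ± 0.88 for Fasl (0.0353), 2.84 ± 0.80 for Nkg7 (0.0458) and -3.83 ± 0.91 for Srgn (0.029).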

How the results depend on the processing

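With 2 tumors per group, the counts of called genes moved most in the comparisons with few calls. The 9 calls against PBS after 2 doses remained 9 under DESeq2 for each agonist form, with 5246 genes called in all for CDN2 and 2048 for exoCDN2. With DESeq2 the count was 1 for CDN2 at 20 µg, 4 for exoCDN2, both against PBS after 1 dose, 1 for exoCDN2 against CDN2 after 1 dose, 1 for exoCDN2 against EVs, 5 for 100 against 20 µg and 5 for CDN2 of unstated amount against PBS. The genes called in all were, in this order, 740, 707, 383, 687, 398 and 357. Without a filter on low counts the counts of the 9 genes, in the same order, were 2, 6, 4, 4, 7 and 9, with 2 for unloaded EVs, 6 for CDN2 at 100 µg and 7 between the PBS schedules. In these 9 comparisons, in the order given, 1076, 1166, 707, 1101, 800, 713, 227, 1178 and 766 genes were called in all. With only the groups compared in the fit, the count was 5 for exoCDN2 and 6 for CDN2 at 100 µg against PBS after 1 dose, 1 and 0 between the forms after 1 and 2 doses, 2 for exoCDN2 against EVs, 2 for the second against the first dose of CDN2, 0 for the change in the difference between the forms and 5 for the unstated amount against PBS. Totals over all genes were, in this order, 1300, 1352, 354, 30, 665, 629, 0 and 276. With PBS tumors of both schedules pooled, the count of the 9 genes was 1, 2 and 0 for CDN2 at 20 µg, exoCDN2 and CDN2 at 100 µg after 1 dose, and 0 for the unstated amount. The genes called in all were 930, 685, 600 and 0. Pooling is not defined for the interactions. The cause of these differences was not tested.

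Tumors share replicate numbers, but the numbers did not pair them: the correlation of deviations ran from -0.183 to 0.322 over pairs of groups, with a mean of 0.00217. The highest value was that of CDN2 and exoCDN2 after 2 doses, between which the block called 3 of the 9 genes and 3109 in all. A replicate block gave 1 call for 100 against 20 µg, with 48 genes called in all. The block moved the log2 difference of Gzma between the forms after 1 dose to 0.055. It moved no other count by over 1.5 times. CDN2 and PBS after 2 doses correlated at -0.139. With the numbers of the 2-dose CDN2 group crossed, added after seeing the data, the counts were 9 against PBS, 3 between the forms, 7 between doses, and 9 and 3 for the interactions. Totals over all genes were 5185, 3256, 3503, 2781 and 1286.

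Leaving out 1 tumor gave counts of 0 to 1 for CDN2 at 100 µg, 0 for 100 against 20 µg and between PBS schedules, 8 to 9 for CDN2 and 7 to 9 for exoCDN2 after 2 doses, 0 to 3 between the forms, 5 to 7 and 2 to 7 for the second against the first dose of CDN2 and exoCDN2, 6 to 8, 6 to 7 and 0 to 7 for the interactions (CDN2, exoCDN2 and their difference), and 0 to 5 and 3 to 6 for the unstated amount against PBS and exoCDN2. The number called over all genes moved in these fits as well, in either direction. The sign of genes without a call turned in some of these fits. Log2 changes ran from -0.69 to 0.41 for Gzma and -0.64 to 0.40 for Gzmc after CDN2 at 100 µg. After 1 dose of CDN2 at 20 µg they ran from -0.039 to 1.01 for Gzmc, -1.20 to 1.14 for Gzmk, -0.18 to 0.029 for Prf1, -0.67 to 0.028 for Nkg7 and -0.10 to 0.68 for Ctsw, and after unloaded EVs from -0.16 to 1.19 for Gzma and -0.41 to 0.66 for Gzmc. Between the forms they ran from -0.59 to 0.81 for Gzma and -0.36 to 0.15 for Gzmb after 1 dose, and from -0.31 to 1.08 for Gzma, -1.16 to 1.32 for Gzmc and -0.30 to 0.94 for Prf1 after 2 doses. With PBS pooled, CDN2 at 20 µg after 1 dose gave 0.44 for Gzmk, 0.70 for Prf1 and 0.49 for Nkg7, exoCDN2 gave 0.062 for Ctsw and CDN2 at 100 µg gave 0.11 for Gzma.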
